A study of Gallus gallus with 403 samples.

Results

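Abdominal fat of the chicken, Gallus gallus, was compared between day 49 and day 21, with 4 arrays at each age chosen by their titles, so 8 of the 403 arrays analysed. The arrays hold biotin-labelled cRNA from total RNA of the whole fat depot, hybridised to the Affymetrix Chicken Genome array, and the labels give each sample a tissue, an age, a sex and a replicate number. In each age group 2 arrays were labelled male and 2 female. The labels name no strain, diet or treatment, do not name the event that days are counted from, and do not say that replicates were separate birds, so the p-values measure only the spread between these arrays, which may be technical.

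The abdominal depot is the main fat store of a growing chicken, and its cells enlarge by filling a lipid droplet with triglyceride. In birds most fatty acids are made in the liver and reach fat in lipoproteins, from which lipoprotein lipase at the vessel wall releases them, while the fat cell itself makes a smaller part. Mature fat cells are known by adiponectin, perilipin and the fatty acid carrier FABP4, under the control of the nuclear receptor PPARG, and the depot also holds vessels, stromal precursors, matrix and immune cells.

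A gene counted as changed when it differed at least 2-fold (1 on the log2 scale) and its adjusted p was under 0.05. Probe sets were dropped as dim only when both group means were under 5.60. A gene under this dim limit at 1 age could thus pass the filter through the other age alone. Lower genes described below that passed only through day 21 include UTP23, DIO3, ALDH1A1, MMP13, SOCS3 and SLC4A1. Of 12485 genes tested, 663 were higher at day 49, which is 5.31% of the genes tested, and 2274 were lower, which is 18.2%. The median log2 difference over all genes was -0.225, so single differences are best read against that value. After quantile normalization of the arrays, which gives all of them the same distribution, the median was -0.01 and the counts were 1025 higher (8.22%) and 1222 lower (9.8%). Higher genes were thus 22.6% of the calls on the deposited values and 45.6% after quantile normalization. Arrays of the ages did not overlap for 19.0% of all genes in the higher and 33.4% in the lower direction, and among the called genes for 643 of the 663 higher and 2084 of the 2274 lower. Counts on both scales are given below for the gene lists. They are to be read beside 5.31% higher and 18.2% lower of all genes on the deposited values. After quantile normalization the shares of all genes are 8.22% and 9.8%.

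Array signal moved with age. The interquartile range of all values on an array lay between 1.26 and 1.44 log2 units at day 49 and between 1.59 and 1.76 at day 21, with no overlap (exact permutation test, two-sided, p = 0.0286, the smallest that 4 against 4 arrays can give). The day 49 group was the 8th narrowest of 100 groups in the series. Differences between 3′ and 5′ control probe sets, which widen when RNA is partly degraded, were 1.28 to 1.64 for EF1A at day 49 and 0.55 to 1.00 at day 21, and 1.64 to 2.31 against 1.29 to 1.48 for GAPDH (exact permutation p = 0.0286 for each). For actin they were 0.73 to 1.58 and 0.20 to 0.92, and these ranges overlapped (exact permutation p = 0.143). The difference also went with level. Its median was 0.14 in the 2497 genes with the lowest mean over the 8 arrays and -0.63 in the 2502 genes with the highest. Of these, 4.57% and 28.9% were called lower and 9.21% and 1.68% higher. In the 2492 genes next below the highest, 32.7% were lower. Shares of all genes given beside the lists below are not matched for level. Age, array signal and RNA quality cannot be told apart in these 8 arrays.

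**Figure D1:**
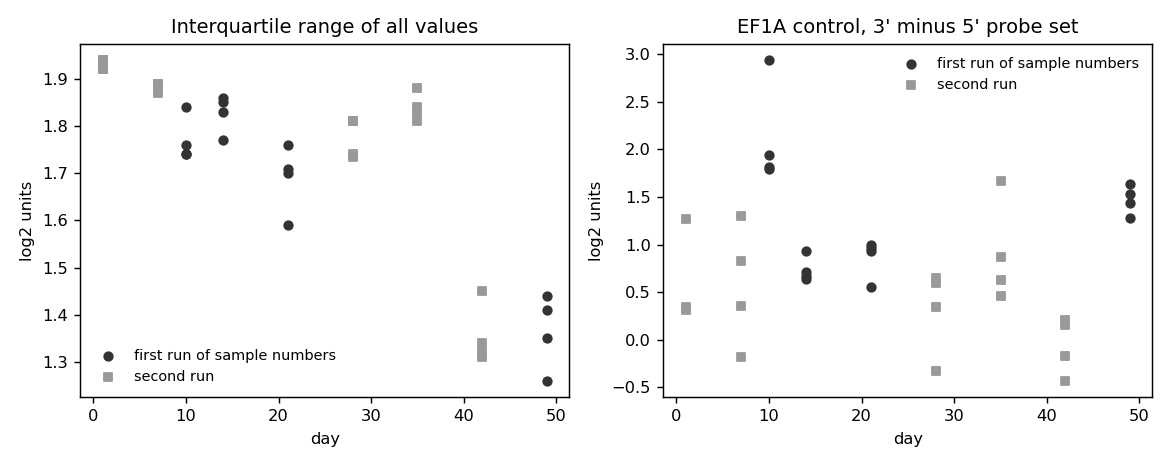
Interquartile range of all values (left) and the 3′ minus 5′ difference of the EF1A control (right), in log2 units, against the labelled day for every abdominal fat array, with 1 point per array. Arrays of day 49, and those of day 42, have narrower ranges (1.26 to 1.44 at day 49) than arrays of the other ages shown.

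Single arrays at both ages stood apart and are named where they touch a result. Day 21 replicate 4 deviated from its group in the opposite way to replicates 1 to 3, with correlations of deviations between -0.83 and -0.72. Deviations from a group mean cancel out, so an array apart from the rest must deviate opposite to them. In this replicate 1701 genes lay far from the other 3 arrays, against 56 to 112 genes for each of the others. Its mesothelial markers averaged 8.45, against 6.22 to 6.55 in the other day 21 arrays, and its endothelial markers 9.44 against 10.27 to 10.49. Day 49 replicates 2 and 3 carried liver genes. Albumin, ALB, the main plasma protein made by liver, read 12.09 and 13.31 there, 6.45 and 6.54 in day 49 replicates 1 and 4, and 5.78 to 6.54 at day 21. The fibrinogen chain FGB read 9.66 and 10.30 in replicates 2 and 3 against 5.67 and 5.50 in replicates 1 and 4, and FGG and the fetuin AHSG were high in the same arrays. None of ALB, FGB, FGG and AHSG passed the test at day 49 (adjusted p from 0.0623 to 0.192). Day 49 replicate 2 also held skeletal muscle genes, with a marker mean of 11.4 against 6.08 to 6.99 in the other day 49 arrays, and day 21 replicate 2 averaged 8.60. The fast troponin TNNI2 read 11.74 in that day 49 array.

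**Figure D2:**
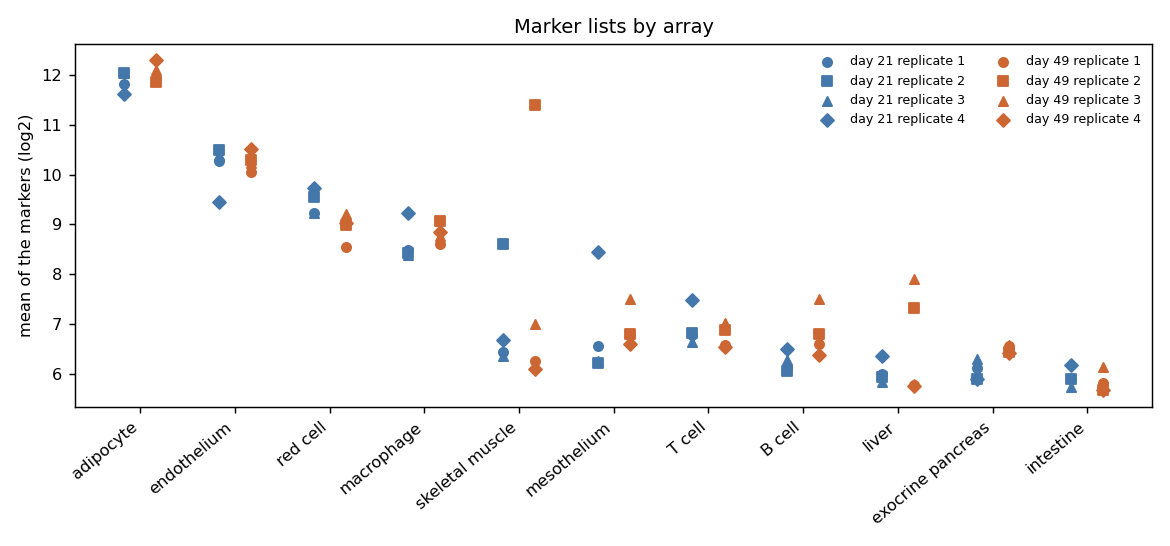
Mean log2 level of the markers of each cell type on each of the 8 arrays, with colour for age and symbol shape for replicate number. Liver markers are high only in day 49 replicates 2 and 3 (7.33 and 7.90), skeletal muscle markers in day 49 replicate 2 (11.4) and mesothelial markers in day 21 replicate 4 (8.45).

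Both ages had the profile of fat cells. Across 100 groups of tissue and age, adiponectin (ADIPOQ) ranked 2nd at day 21 and 3rd at day 49, and perilipin 1 (PLIN1), which coats the lipid droplet, 2nd and 5th. FABP4, LPL (lipoprotein lipase) and PPARG ranked 4th at day 21 and 1st at day 49, while CIDEC went from 3rd to 12th and THRSP from 2nd to 8th. These ranks use 1 probe set a gene. Another PLIN1 probe set rose from 10.67 to 13.03 (2.36, adjusted p = 1.69e-05 in a limma fit of all probe sets) and was the brighter at day 49. The mean of the 7 adipocyte markers was 11.62 to 12.04 at day 21 and 11.86 to 12.29 at day 49, and the groups overlapped (exact permutation p = 0.286). ADIPOQ read 11.12, 11.46, 11.45 and 12.29 at day 21 and 11.09, 11.54, 11.86 and 11.41 at day 49, with overlapping arrays and a log2 difference of -0.10 ± 0.26 (SE, n = 4 per age; limma, adjusted p = 0.748).

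FABP4 and LPL were above their day 21 level in all 4 day 49 arrays, by less than 2-fold. FABP4 read 13.75, 13.82, 13.77 and 13.37 at day 21 and 14.22, 14.32, 14.31 and 14.43 at day 49, a log2 difference of 0.64 ± 0.13 (adjusted p = 0.0024). LPL read 12.49, 12.69, 12.85 and 12.08 at day 21 and 13.24, 13.23, 13.27 and 13.79 at day 49, a difference of 0.85 ± 0.20 (adjusted p = 0.00538), and 1.11 after quantile normalization, where it passed the size threshold. In neither gene did the groups overlap. CIDEC, a protein that fuses lipid droplets, read 11.71 to 12.18 at day 21 and 11.00 to 11.38 at day 49, a difference of -0.66 ± 0.14 (adjusted p = 0.00349). PPARG, the receptor that drives fat cell differentiation, read 8.47, 8.74, 8.88 and 6.22 at day 21 and 9.36, 8.49, 9.92 and 10.02 at day 49. Its arrays overlapped and its difference of 1.37 ± 0.60 missed the test (adjusted p = 0.077), with day 21 replicate 4 the low array. The other 2 PPARG probe sets gave -0.60 and -0.20, while quantile normalization gave 1.94, which passed.

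Of the 31 genes tested on the list of fat cell identity and the lipid droplet, 3 rose (9.68%) and 2 fell (6.45%). These shares stand beside 5.31% and 18.2% of all genes, and the median difference was 0.01. After quantile normalization 7 were higher and 1 lower, beside 8.22% and 9.8% of all genes. PTRF (cavin-1), a coat protein of caveolae, the membrane pits that are dense in fat cells, rose from 9.28, 9.73, 9.61 and 9.86 to 11.86, 11.81, 11.77 and 11.77. The day 49 arrays lay within 0.09 of each other and well above day 21, a difference of 2.18 ± 0.14 or 4.54-fold (adjusted p = 8.94e-06), though another PTRF probe set gave 0.62, which did not pass. AQP7, the glycerol channel of fat cells, rose by 1.16 ± 0.14 (adjusted p = 0.000189), and RXRA, the partner receptor of PPARG, by 1.19 ± 0.14 (adjusted p = 0.000159). Each call rested on 1 of 3 probe sets. The others gave 0.48 and -0.21 for AQP7, and another gave -0.20 for RXRA. Averaging ended both calls (0.48 and 0.63). AGPAT2, an acyltransferase of triglyceride synthesis, fell from 8.60, 8.65, 8.57 and 9.01 to 6.83, 6.29, 6.66 and 6.77, a difference of -2.07 ± 0.16 (adjusted p = 1.81e-05) with no overlap. KLF15, a transcription factor of metabolic genes, fell by 1.55 on the log2 scale (adjusted p = 0.00113), and by 0.95 after quantile normalization, which did not pass. Its other probe set gave 0.87, and the average of both was not called (-0.34).

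On the deposited values 6 of 22 fatty acid synthesis genes fell, or 27.3% beside 18.2% of all genes, and the desaturase SCD rose, with a median of -0.44. The balance turned after quantile normalization, with 3 lower, 4 higher and a median of 0.12. FASN, the fatty acid synthase, read 12.38, 12.19, 12.38 and 11.94 at day 21 and 10.16, 10.12, 10.07 and 10.71 at day 49, with no overlap. It fell by 1.96 on the log2 scale (SE 0.17, adjusted p = 3.51e-05), and by 1.49 after quantile normalization. A dimmer FASN probe set gave -0.58, which did not pass. NR1H3, the liver X receptor that drives lipogenic genes, fell from 11.41, 11.36, 11.22 and 11.41 to 9.06, 9.65, 9.21 and 9.40 (-2.02 ± 0.14, adjusted p = 1.31e-05). A dimmer NR1H3 probe set, at 8.63 and 8.44, gave -0.19, which did not pass. ME3, a malic enzyme that makes NADPH, fell by 1.79 (adjusted p = 0.00171). FADS2, a desaturase of polyunsaturated fatty acids, and HACD2, an enzyme of chain elongation, fell by 1.84 and 1.20, but their arrays overlapped, since day 21 replicate 4 read 8.58 for each. Both calls ended after quantile normalization (-1.26 and -0.55), with the replicate block (adjusted p = 0.0591 and 0.062) and without day 49 replicates 2 and 3 (-1.08 and -0.91).

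SCD, which makes monounsaturated fatty acids for storage, read 9.03, 8.68, 8.83 and 8.37 at day 21 and 10.53, 10.79, 9.05 and 10.89 at day 49. Replicate 3 was the low day 49 array and lay just above the highest day 21 array. The difference was 1.59 ± 0.38 or 3.01-fold (adjusted p = 0.00655). THRSP (Spot 14), a lipogenic regulator abundant in chicken fat, read 13.34 to 13.41 at day 21 and 12.39 to 12.84 at day 49, a difference of -0.76 ± 0.12 (adjusted p = 0.000793) that is under 2-fold.

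**Figure D3:**
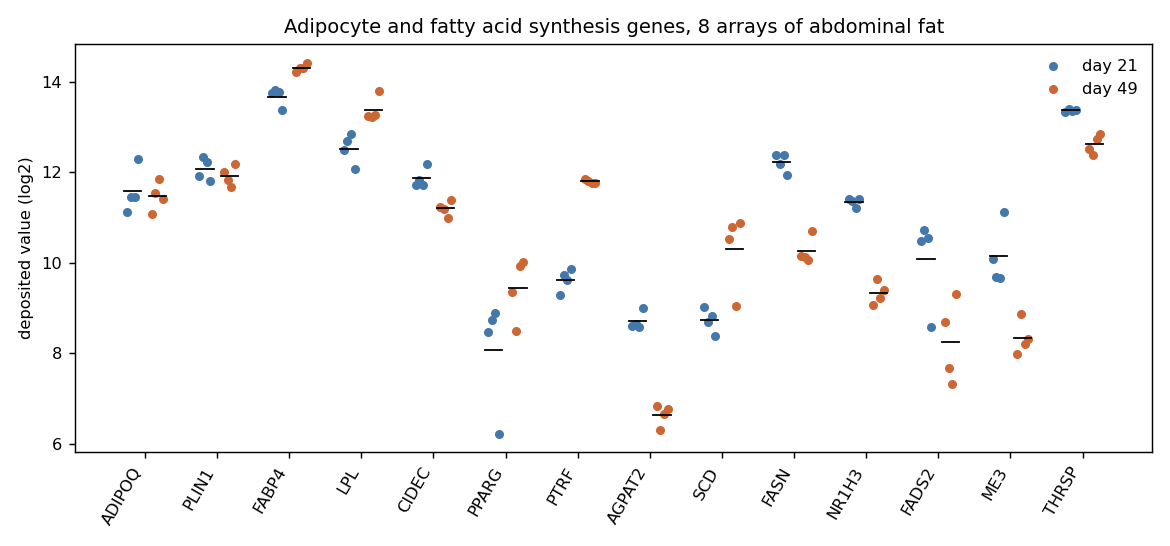
Deposited log2 values of 14 fat cell and fatty acid synthesis genes on each array of day 21 and day 49, with black bars for the group means of 4 arrays. PTRF and SCD lie higher at day 49 and AGPAT2, FASN, NR1H3 and ME3 lower, with no overlap, while ADIPOQ and the PLIN1 probe set drawn overlap.

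Genes of lipolysis and its control went both ways, with 2 higher (12.5%) and 4 lower (25%) of 16 tested, beside 5.31% and 18.2% of all genes. After quantile normalization 4 were higher and 0 lower, beside 8.22% and 9.8% of all genes. PDE3A, a phosphodiesterase that degrades cyclic AMP, rose from between 5.48 and 5.80 to between 7.14 and 7.58 (1.66 ± 0.13, adjusted p = 2.22e-05). PDE3B, the related enzyme through which insulin restrains lipolysis, read 10.76, 10.61, 10.50 and 9.18 at day 21 and 8.62, 8.62, 9.55 and 8.55 at day 49. It fell by 1.43 (adjusted p = 0.00945), with overlap between day 21 replicate 4 and day 49 replicate 3. ADORA1, the adenosine receptor that inhibits lipolysis, fell by 1.16 (adjusted p = 0.0019). PNPLA2, the lipase that starts triglyceride breakdown, has no settled direction, since its brightest probe set fell by 1.09 while the others rose by 3.33 and 1.47. MGLL, which splits monoglycerides, had 1 probe set called in each direction of 4, and PRKACB, a catalytic subunit of protein kinase A, 2 higher and 1 lower of 3.

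No gene of fatty acid oxidation rose, and 7 of 29 fell, or 24.1% beside 18.2% of all genes. The median was -0.22, near that of all genes, and after quantile normalization 2 were lower and 1 higher. ACADSB, an acyl-CoA dehydrogenase, fell from 10.02, 10.19, 10.22 and 9.88 to 7.88, 8.41, 8.23 and 8.37 (-1.85 ± 0.15, adjusted p = 2.22e-05). CPT2, which reloads fatty acids onto coenzyme A inside mitochondria, fell by 1.56 (adjusted p = 0.00303). Both kept their call after quantile normalization, whereas ACOT8, ACADS, CROT and HADHB did not. Of 31 genes of glycolysis and glycerol supply 3 rose (9.68%) and 2 fell (6.45%), beside 5.31% and 18.2% of all genes. After quantile normalization 6 rose and 2 fell, beside 8.22% and 9.8% of all genes. SLC2A1, the glucose transporter GLUT1, fell from 8.67, 8.55, 8.86 and 9.28 to 6.44, 7.92, 7.22 and 7.43 (-1.59 ± 0.30, adjusted p = 0.00187), and PDHB, a subunit of pyruvate dehydrogenase, by 2.18 (adjusted p = 1.3e-05). The glycerol kinase GK2 rose by 1.59 (adjusted p = 0.000165) from a day 21 mean of 5.36, and its probe set passed the dim filter only through day 49. FBP2, a fructose bisphosphatase of muscle, rose by 1.38, with its highest value, 8.34, in day 49 replicate 2, the array with skeletal muscle genes. The kinase PDK1, which inhibits pyruvate dehydrogenase, rose by 1.08 (adjusted p = 0.04), with day 21 replicate 4 low at 7.56, and gave 0.70 with no call without that array. Without day 49 replicates 2 and 3 none of the 3 was called, though PDK1 differed by 1.41 (adjusted p = 0.0571) and FBP2 by 0.93 (adjusted p = 0.00523), while GK2, by then represented by another probe set, differed by 0.62.

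Mitochondrial genes that changed nearly all fell. Of 47 genes of the respiratory chain 12 fell and none rose, a share of 25.5% beside 18.2% for all genes, with a median of -0.73. Of the 2502 brightest genes of any kind 28.9% were lower, and the list was not matched for level. After quantile normalization 2 of the 47 were lower, beside 9.8% of all genes, and the median was -0.28. Of 34 genes of mitochondrial carriers and the citrate cycle 11 fell (32.4%) and 1 rose (2.94%), with 5 lower after quantile normalization. NDUFS3, a core subunit of complex I, fell from 9.44, 8.48, 9.33 and 9.55 to 7.11, 6.56, 6.90 and 7.14 (-2.27 ± 0.25, adjusted p = 9.35e-05). NDUFA5, another complex I subunit, fell by 1.92 (adjusted p = 0.000138). MDH2, the mitochondrial malate dehydrogenase, fell from between 11.87 and 12.33 to between 10.27 and 10.51 (adjusted p = 2.31e-05). For SLC25A13, the aspartate and glutamate carrier citrin, 2 of 3 probe sets fell and 1 rose.

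Genes of the growth hormone, insulin and IGF axis fell in 8 of 24 cases (33.3%, beside 18.2% of all genes) and rose in 1 (4.17%). After quantile normalization 5 fell and 2 rose. IGF1R, the receptor of insulin-like growth factor 1, read 8.52, 8.69, 8.54 and 7.88 at day 21 and 5.98, 6.08, 5.78 and 5.77 at day 49. The groups were far apart, at -2.50 ± 0.18 or 5.68-fold (adjusted p = 1.49e-05). Feedback inhibitors of cytokine and growth hormone receptors were among the genes that fell, with CISH lower by 1.91 (adjusted p = 4.41e-05), SOCS2 by 1.70 (adjusted p = 0.000254) and SOCS3 by 1.48 (adjusted p = 0.00216). GRB10, an adaptor that restrains the insulin and IGF receptors, fell by 1.50 (adjusted p = 0.000564). IGFBP4, a secreted protein that binds IGF, rose from 8.88, 8.58, 8.53 and 10.15 to 10.67, 10.73, 11.09 and 10.27 (1.66 ± 0.35, adjusted p = 0.00359), with day 21 replicate 4 close to the day 49 arrays. Without day 49 replicates 2 and 3, 5 of these genes were lower, beside 2350 of 12497 genes of any kind.

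Among 19 genes of thyroid, glucocorticoid and sex steroid action 3 fell (15.8%) and 1 rose (5.26%), near the shares of all genes (18.2% and 5.31%). After quantile normalization 2 fell and 1 rose. DIO3, the deiodinase that inactivates thyroid hormone, fell from 8.25, 7.51, 7.39 and 8.00 to 5.32, 5.33, 5.32 and 5.30. The day 49 arrays were nearly equal and all below day 21 (-2.47 ± 0.19, adjusted p = 1.85e-05). THRB, a thyroid hormone receptor, rose from between 4.76 and 4.99, near the dim end of the array, to between 6.05 and 6.17 (1.19 ± 0.10, adjusted p = 2.84e-05). It passed the dim filter only through day 49. NR3C2, the mineralocorticoid receptor, fell by 1.65 (adjusted p = 0.000442).

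With all 8 arrays, the list of collagens and connective tissue was near the shares of all genes (5.31% higher, 18.2% lower), with single genes changed in both directions. Of its 58 genes 4 rose (6.90%) and 10 fell (17.2%, median -0.16), and 5 and 7 after quantile normalization. Without day 49 replicates 2 and 3, the lower count of the list was 20, beside 2350 of 12497 genes of any kind. In that setting the list was thus above the share of all genes. LOX, the lysyl oxidase that crosslinks collagen and elastin, rose from 6.70, 6.57, 6.80 and 6.99 to 8.30, 9.68, 8.82 and 9.90 (2.41 ± 0.33, 5.31-fold, adjusted p = 0.00032). Its relative LOXL1 moved the other way, from 11.65, 11.16, 11.12 and 12.29 to 8.85, 10.04, 9.61 and 9.16 (-2.14 ± 0.32, adjusted p = 0.000568). The groups did not overlap for either enzyme. VCAN, the proteoglycan versican of provisional matrix, fell by 2.27 with both of its probe sets called lower (adjusted p = 0.000182), HAS2, which makes hyaluronan, by 2.40 (adjusted p = 1.42e-05), and PLOD2, a lysyl hydroxylase of collagen, by 2.34 (adjusted p = 0.00335). MMP2, a gelatinase, rose by 1.25 (adjusted p = 0.00171) and MMP13, a collagenase, fell by 1.35 (adjusted p = 0.000854). A pair of basement membrane genes had probe sets called in opposite directions, namely NID1 (nidogen), whose brightest probe set fell by 3.00, and HSPG2 (perlecan), whose brightest rose by 2.40.

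Of 53 genes of preadipocytes and stroma 11 fell (20.8%) and 3 rose (5.66%), near the shares of all genes, and 3 and 5 after quantile normalization. ALDH1A1, which makes retinoic acid, fell from 8.28, 7.14, 7.50 and 7.07 to 4.75, 4.93, 5.35 and 4.71 (-2.56 ± 0.27, adjusted p = 8.68e-05). TGFB3, a growth factor of stromal cells, fell by 2.06 with both probe sets lower (adjusted p = 0.000694), WNT5B by 1.80 (adjusted p = 2.92e-05) and SNAI2, a mesenchymal transcription factor, by 1.47 (adjusted p = 0.0031). PDGFRA, the receptor that marks fat cell precursors, rose from between 5.17 and 5.56 to between 6.42 and 7.68 (1.84 ± 0.26, adjusted p = 0.000389). It averaged 5.415 at day 21 and also passed the dim filter only through day 49. Of 42 endothelial genes 5 rose (11.9%) and 4 fell (9.52%), beside 5.31% and 18.2% of all genes. After quantile normalization 12 rose and 4 fell, beside 8.22% and 9.8% of all genes. ENG (endoglin) rose from 5.40, 5.41, 5.47 and 6.36 to 7.52, 7.48, 7.40 and 7.52 (1.82 ± 0.21, adjusted p = 0.00014). MMRN2, a matrix protein of vessels, rose by 1.74 (adjusted p = 3.3e-05). It averaged 4.955 at day 21 and passed the dim filter only through day 49. The endothelial transcription factor SOX17 fell by 2.06 (adjusted p = 0.00048). ERG, another, read 9.09, 9.06, 9.21 and 6.82 at day 21 and 6.67 to 7.00 at day 49, so that its groups overlapped through day 21 replicate 4. The 5 endothelial markers averaged 9.44 to 10.49 at day 21 and 10.05 to 10.51 at day 49, with overlap (exact permutation p = 0.8). In bulk tissue, fewer cells of a type and less RNA per cell cannot be told apart.

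The lists of T and natural killer cells and of macrophages and granulocytes had shares of lower genes near that of all genes. Inflammatory mediators had a smaller share. The lists were not tested against each other. Of 32 genes of T and natural killer cells 7 fell (21.9%, beside 18.2% of all genes) and 1 rose, and 5 and 0 after quantile normalization. GZMA, a granzyme of cytotoxic cells, fell from 7.67, 8.55, 8.10 and 7.38 to 5.90, 6.28, 6.48 and 5.75 (-1.82 ± 0.27, adjusted p = 0.000479), CD247, the zeta chain of the T cell receptor, by 1.42 (adjusted p = 0.000216) and RAC2, a GTPase of blood cells, by 2.02 (adjusted p = 0.000237). The 4 T cell markers CD3D, CD3E, LCK and ZAP70 averaged 6.63 to 7.47 at day 21 and 6.53 to 7.02 at day 49, and overlapped (exact permutation p = 0.571). Of 42 macrophage and granulocyte genes 8 fell (19.0%) and 4 rose (9.52%, beside 5.31% of all genes), and 3 and 8 after quantile normalization. ITGB2, the shared chain of leukocyte integrins, fell by 1.90 (adjusted p = 0.000103) and C1QB, a complement subunit, by 1.78 (adjusted p = 0.00352), while MARCO, a scavenger receptor, rose by 1.73 (adjusted p = 0.00558), with day 21 replicate 4 at 7.72 among the day 49 arrays. Of 51 inflammatory mediators 3 rose and 4 fell (7.84%), and 3 and 2 after quantile normalization. PTGES, a prostaglandin E synthase, rose from 4.68, 4.53, 4.60 and 5.71 to 6.59, 6.75, 7.77 and 6.74 (2.08 ± 0.33, adjusted p = 0.000761). CX3CL1 (fractalkine), a chemokine, rose from between 4.00 and 4.03 to between 5.43 and 6.37 (adjusted p = 8.88e-05). PTGES and CX3CL1 averaged 4.88 and 4.01 at day 21 and passed the dim filter only through day 49. The 4 red cell markers on the array averaged 9.23 to 9.74 at day 21 and 8.54 to 9.20 at day 49 (exact permutation p = 0.0286). They did not move together. SLC4A1, the red cell anion exchanger, fell by 1.90 (adjusted p = 0.00012) and the alpha globin HBAD by 1.29 (adjusted p = 0.00702), while EPB42, a protein of the red cell membrane skeleton, rose by 1.02 (adjusted p = 0.000102) and HBA1 differed by 0.19 (adjusted p = 0.467). HBAD was called on 1 of 3 probe sets and not after quantile normalization (-0.86), and EPB42 was called on 1 of 2.

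Protein folding in the endoplasmic reticulum had the highest share of lower genes among the 34 lists, at 11 of 27 or 40.7%, with 1 higher and a median of -0.74. Of the 2502 brightest genes of any kind 28.9% were lower, and the list was not matched for level. After quantile normalization 6 of the 27 were lower and 1 higher, beside 9.8% and 8.22% of all genes. SSR3, a subunit of the translocon complex, fell from 11.18, 11.11, 11.16 and 11.47 to 8.96, 9.41, 9.51 and 9.47 (-1.89 ± 0.15, adjusted p = 2.31e-05). CRELD2, an endoplasmic reticulum stress protein, fell by 2.26 (adjusted p = 4.17e-05) and SPCS1, a signal peptidase subunit, by 1.79 (adjusted p = 0.000124). Of 46 immediate early and stress genes 14 fell (30.4%) and 1 rose (2.17%), beside 18.2% and 5.31% of all genes, and 7 and 5 after quantile normalization. MYC read 9.11, 7.64, 7.28 and 9.04 at day 21 and 6.14, 7.27, 6.45 and 6.43 at day 49, where replicate 2 came within 0.01 of the lowest day 21 array (-1.70 ± 0.45, adjusted p = 0.0102). ATF4, the transcription factor of the integrated stress response, fell by 1.53 on its brightest probe set (adjusted p = 5.06e-05), while the other 2 gave 0.61 and 0.21 and the average of all 3 was not called (-0.24). The ribosome list had 8 lower and 0 higher of 57, below the background share, with RPS29 the largest at -1.89 ± 0.12, and 3 lower and 1 higher after quantile normalization. Of 20 clock genes 4 fell (20%, near the 18.2% of all genes) and 0 rose, and 2 and 1 after quantile normalization. Those that fell included the casein kinases CSNK1E (-1.78, adjusted p = 0.000768) and CSNK1D (-1.70, adjusted p = 9.3e-06), which phosphorylate the period proteins. The other 3 probe sets of CSNK1D gave -0.68, 0.94 and 0.54, and the average of all 4 was not called (-0.22).

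**Figure D4:**
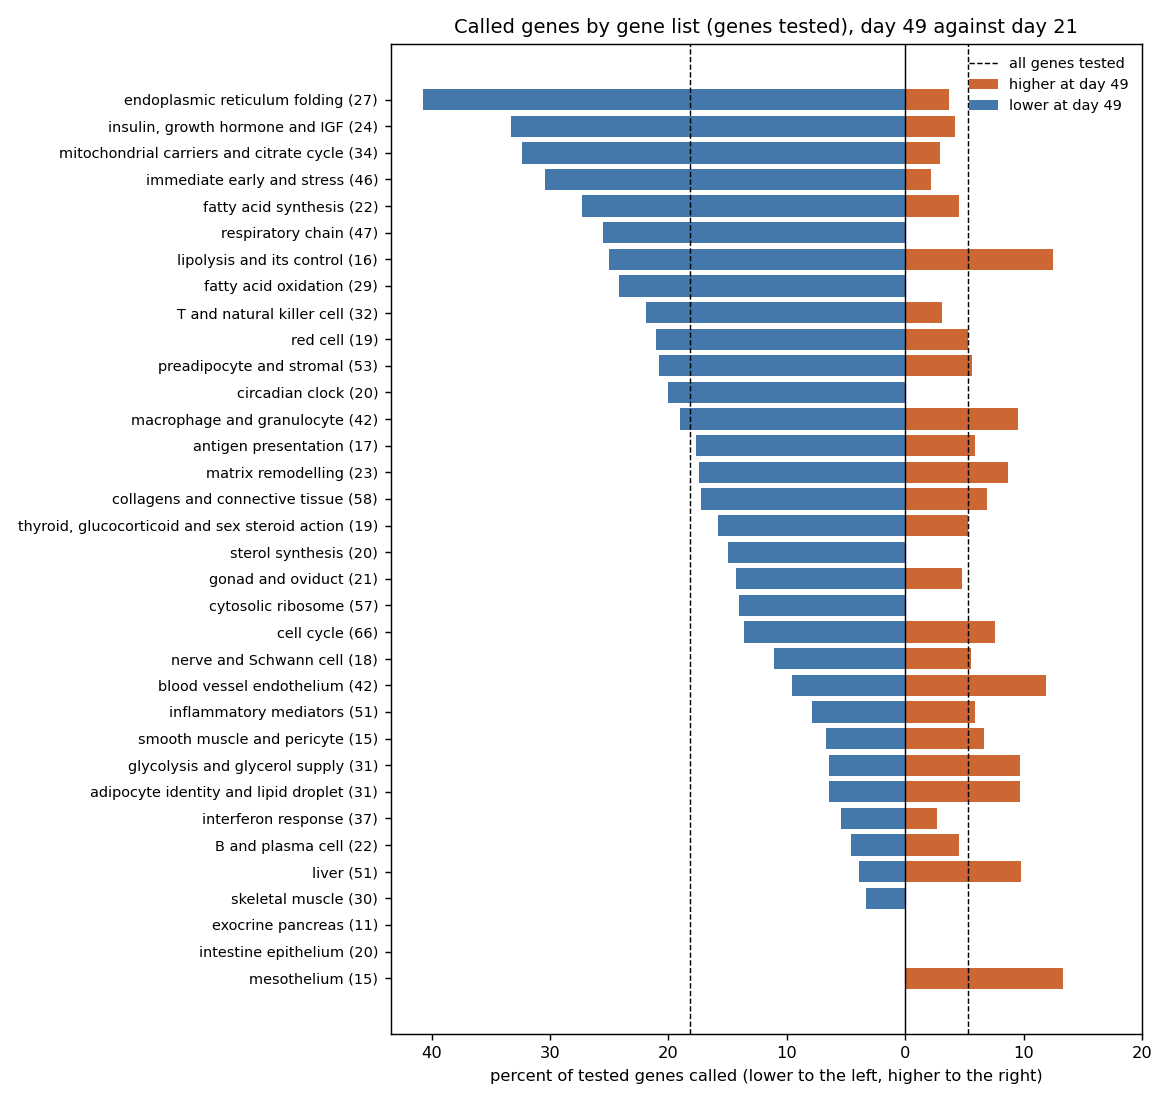
Share of the tested genes of each list called lower (left) or higher (right) at day 49, in percent, with the number tested in brackets and dashed lines for all genes tested (18.2% lower, 5.31% higher). Endoplasmic reticulum folding has the longest bar to the left, 40.7%. The lists are not matched for level.

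By size of change, the higher genes were led by LOC107052719, which has no gene name here (4.49 ± 0.65), and by B3GALNT2, a glycosyltransferase that modifies dystroglycan. The other probe set of LOC107052719 gave 0.15, which did not pass. Day 21 replicate 4 read 8.34 for this gene, and the nearest other array of that age 5.79. B3GALNT2 read 6.74, 6.92, 6.57 and 7.37 at day 21 and 11.59, 11.25, 10.78 and 11.29 at day 49, a 20.1-fold difference (4.33 ± 0.22, adjusted p = 5.47e-06). Its other 2 probe sets gave -0.49 and 0.03. AQP3, a channel for water and glycerol, rose from 7.29, 8.01, 7.57 and 7.60 to 10.45, 11.00, 10.59 and 11.53, or 9.68-fold (adjusted p = 1.85e-05), on its single probe set. FSTL1, a secreted glycoprotein of stromal and fat cells, rose from 6.74, 6.44, 6.51 and 7.40 to 8.72, 10.33, 10.48 and 10.24 (3.17 ± 0.39, adjusted p = 0.000191), and a further probe set rose by 2.04. Next came AKAP1, which anchors protein kinase A at mitochondria (3.02), the acetyltransferase KAT5 (2.99), the phosphatase PPM1H (2.96) and the autophagy kinase ULK2 (2.56), each with 1 probe set and no overlap. Their day 21 means were 4.69, 4.64, 3.62 and 4.93, so each passed the dim filter only through day 49. COPG1, TXNDC11 and UTRN had a probe set called in the opposite direction, and the kinase SRC rose by 2.66 on 1 of 6 probe sets. OASL, an interferon-induced gene, rose by 2.50 (adjusted p = 0.0244), with 11.93 in replicate 2 against 7.88 to 9.12 in the other day 49 arrays. PGA5, a pepsinogen, rose by 2.47 (adjusted p = 0.0266), with replicate 3 at 11.29. Both kept their call without that array and lost it without day 21 replicate 1, 2 or 3 (adjusted p from 0.0532 to 0.0615 for OASL and from 0.0543 to 0.0591 for PGA5), and averaging the probe sets of PGA5 gave 0.95, which did not pass.

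The largest decrease was in UTP23, a factor of ribosomal RNA processing. It read 9.09, 9.38, 8.90 and 9.07 at day 21 and 5.04, 5.18, 5.07 and 5.36 at day 49, or 15.4-fold lower (adjusted p = 2.31e-06), while a second probe set gave 0.70. ANKRD11, a chromatin regulator, fell from 10.06, 10.05, 10.17 and 9.07 to 6.21, 6.21, 6.21 and 6.09 (adjusted p = 8.98e-06), and a further probe set fell by 1.93. NDUFA13, a complex I subunit, fell by 3.53, SIVA1, a death receptor adaptor, by 3.44, GRK3, a kinase that desensitises G protein-coupled receptors, by 3.42, and NRIP1 (RIP140), a nuclear receptor corepressor that represses oxidative genes in mouse fat, by 3.29. NRIP1 read 10.52, 10.09, 9.83 and 8.40 at day 21 and 6.23, 7.10, 5.90 and 6.43 at day 49, and a second gene number with the symbol NRIP1 fell by 1.05 (adjusted p = 0.043). TNFRSF21, a death receptor, fell by 3.25, and KLF13 by 3.47 on its brightest probe set, with another of its 4 probe sets called higher. A dimmer probe set gave 0.11 for GRK3 and -0.585 for NDUFA13, and neither passed.

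Agreement between probe sets of a gene was limited. Of the 663 higher genes 297 had several probe sets above the dim limit, and in 57 another was also called higher, while in 27 another was called lower. Of the 2274 lower genes 1349 had several, with another called lower in 281 and higher in 199. In each of 9 other settings that kept all 8 arrays, 332 of the higher and 679 of the lower genes kept their call. Of 111 called genes described here or in the closing section, averaging probe sets ended the call of 30, among them MDH2 (-0.80), PDHB (-0.79), PDE3A (0.84), GRB10 (-0.95), ACADS (-0.57), C1QB (-0.65) and SRC (0.66). Quantile normalization ended the call of 13, among them PDE3B (-0.80), ADORA1 (-0.76) and SNAI2 (-0.85). Without day 49 replicates 2 and 3 the call of 12 ended, among them MMP2 (0.93), HADHB (-0.95) and ERG (-1.87, adjusted p = 0.061).

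Values at the other ages were set beside these changes, without a test. Days 28, 35 and 42 came from a second run of sample numbers, and day 42 shared the narrow signal range of day 49. Age cannot be told apart from run and array signal there. At day 14, of the same run of sample numbers, 46 of the 663 higher genes (6.94%) and 84 of the 2274 lower genes (3.69%) lay nearer to day 49 than to day 21. At day 10 these shares were 61.2% and 38.3%, and fat cell genes were not yet high (ADIPOQ averaged 6.16). Days 10 and 49 were alike in some array measures. The EF1A 3′ minus 5′ difference was at least 1.79 at day 10 and 1.28 at day 49. It was at most 0.93 at day 14 and 1 at day 21. The lowest value on an array was at least 3.6 at days 10 and 49 and at most 3.47 at days 14 and 21. The interquartile range was not alike, at 1.74 or more at day 10 and 1.44 or less at day 49. The part of these measures in the shares was not tested. Day 10 differed from day 21 in other signal too. Globin HBA1 averaged 6.4 against 12.5, CD74 8.0 against 14.0 and AQP1 7.9 against 11.8, while CXCL14 averaged 9.4 against 4.7. The W gene HINTW read 9.94 to 13.02 at day 10 and 6.00 to 6.57 at day 21. For days 28 and 35 together, from the second run, the shares nearer to day 49 were 30.3% and 24.6%. For day 42 they were 56.0% and 85.8%. The runs differ in the spread between arrays and may differ in level. AKAP1 averaged 8.61 at day 10, 4.98 at day 14, 4.69 at day 21, 7.80 at days 28 and 35, 6.88 at day 42 and 7.71 at day 49, so that days 14 and 21 were its low ages. PPM1H had the same shape, at 3.61 and 3.62 on days 14 and 21 and between 5.20 and 6.58 at every other age. So did CX3CL1, at 4.02 and 4.01 on days 14 and 21 and between 5.165 and 6.315 at every other age. UTP23, in contrast, averaged 8.42 and 8.64 at days 28 and 35 and fell below 7 only at days 10, 42 and 49.

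Day 42 against day 28 is a comparison of other arrays of the same tissue, with 4 arrays each. There 202 genes were higher (1.61%) and 2175 lower (17.3%) of 12568 tested, with a wider spread between arrays (median SD 0.51 at day 42, 0.15 at day 49). Liver genes appeared in single arrays here too. ALB read 9.25 and 12.92 in day 42 replicates 1 and 4 and 6.49 and 6.24 in replicates 2 and 3. It was called higher at day 42 (3.20, limma, adjusted p = 0.0198), and FGB read 10.06 in replicate 4. The interquartile range at day 42, 1.31 to 1.45, was narrow as at day 49, against 1.74 to 1.81 at day 28, while the GAPDH and EF1A control differences were no higher at day 42 (means 0.38 and -0.06, against 1.15 and 0.32 at day 28) and that of actin was 1.27 against 0.88. After quantile normalization 101 were higher and 156 lower. Of 12177 genes in both fits, 1009 were lower in both intervals, which is 44.7% of those lower at day 49 and 46.5% of those lower at day 42, and 53 were higher in both, which is 8.22% and 27.9%. Only 4 genes lower at day 49 were higher at day 42, and 18 went the other way. After quantile normalization 57 were lower in both and 49 higher in both.

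Some of the largest changes at day 49 passed in the other interval too. B3GALNT2 rose by 3.15 from day 28 to day 42, TXNDC11 by 3.18, SRC by 3.03 and LOX by 1.29. AGPAT2 fell there by 1.68, FASN by 1.44, NR1H3 by 1.35, SLC2A1 by 2.46, LOXL1 by 2.50 and HAS2 by 1.53. Others passed at day 49 and not at day 42, and the difference between the intervals was not tested. IGF1R differed by -0.17, CISH by -0.31, PTRF by -0.24, AKAP1 by -0.92 and CX3CL1 by -0.70, none of which passed between days 28 and 42. SCD differed by 0.51, and AQP3 by 0.94, which did not pass either. MMP2 went the other way and fell by 1.20.

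**Figure D5:**
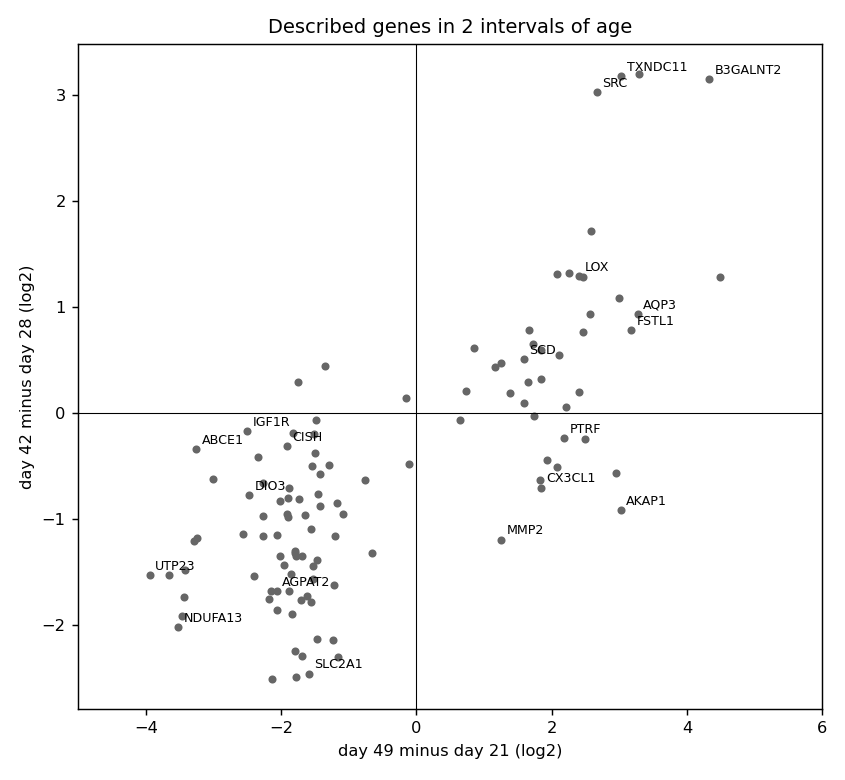
Log2 difference of day 42 minus day 28 against that of day 49 minus day 21, with 1 point for each of 115 described genes represented by the same probe set in both fits. The genes were chosen for the day 49 comparison, so the spread along the horizontal axis reflects that choice. B3GALNT2, TXNDC11, SRC and the liver gene ALB, high in single arrays at days 42 and 49, lie above 2 on both axes.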

How the data were processed

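The deposited values are log2 intensities, 1 per probe set and array, used as deposited. The authors used Affymetrix Expression Console 1.1, per the submitters' processing notes, with a normalization not given in the sources used here. Besides 96 controls among 38535 probe sets, 27168 carried 1 gene symbol and only these were named and tested, while 177 carried several and 11094 none. Symbols were updated by gene number where possible (26853 probe sets matched).

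Groups were taken from the sample titles. Only the 8 arrays entered the fit. Dim probe sets, with both group means under 5.60 (the 25th percentile of the values), were dropped, and a gene was represented by its brightest probe set. Linear models with moderated statistics (limma 3.58.1, R 4.3.3) gave log2 differences, with Benjamini-Hochberg adjustment over all genes tested. Day 42 against day 28 was fitted in the same way. Single values were compared by an exact permutation test. No 2 of the 8 arrays held identical values. The number of arrays limits the precision.

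The arrays, the 34 gene lists and the tests were chosen with earlier results of these data known. Genes named were the largest changes with non-overlapping arrays, up to 15 per direction, up to 6 per list, and a fixed set of markers. The fit was tested on simulated data with known changes. Alternatives were other dim filters, quantile normalization, median centring of arrays, averaging a gene's probe sets, array weights, trend and robust moderation, labelled sex, replicate number as a block, all ages of a run in 1 fit, and each array left out. HINTW, a gene of the female W chromosome, read 5.80 to 6.57 in all 8 arrays although 4 were labelled female, so labelled sex was not otherwise used. Figures were drawn with matplotlib 3.10.9.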

Additional observations from a re-analysis of the deposited data

Results flagged for a closer look

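In a group of 4 arrays, an array was listed here when its gap to the nearest other array took up most of the group's range (Dixon's 95% criterion). Of 248 groups checked, from 124 genes at both ages, 31 met it, and chance alone gives about 1 in 20. Of these 31, 20 concern day 21 replicate 4 and 11 concern single arrays of day 49.

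Day 21 replicate 4 was below the other 3 arrays for ABCE1 (8.99), ALB (5.78), ANKRD11 (9.07), CROT (9.29), CSNK1E (7.28), ERG (6.82), FABP4 (13.37), FADS2 (8.58), HACD2 (8.58), PDE3B (9.18), PDK1 (7.56), PLOD2 (8.41) and PPARG (6.22). It was above them for ENG (6.36), LOC107052719 (8.34), MARCO (7.72), PIM3 (8.69), PTGES (5.71), SLC4A1 (7.83) and SPCS1 (11.42). The part of the mesothelial and endothelial marker levels of this array in these values was not tested.

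At day 49, replicate 2 stood above the others for TNNI2 (11.74) and FBP2 (8.34), which are genes of skeletal muscle. Replicate 3 stood above for PGA5 (11.29), PDE3B (9.55), PTGES (7.77) and RPS29 (12.14) and below for GRK3 (6.56). Replicate 4 stood above for FASN (10.71) and LPL (13.79) and below for ANKRD11 (6.09), where the other 3 arrays read 6.21, and replicate 1 stood below for FSTL1 (8.72).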

How the results depend on the processing

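For day 49 against day 21, quantile normalization gave 1025 higher and 1222 lower genes, and averaging a gene's probe sets gave 1333 lower ones. The other planned settings with all 8 arrays stayed within 1.5 times of 663 and 2274. Leaving out each array gave 612 to 766 higher and 2117 to 2447 lower genes. Without day 49 replicates 2 and 3, chosen after seeing the data, the counts were 548 and 2350, and without day 21 replicate 4 as well, 667 and 2727. For day 42 against day 28, quantile normalization gave 101 higher and 156 lower genes and averaging probe sets 130 and 1241, and leaving out each array gave 105 to 233 and 1359 to 2390. Higher counts fell to 112 and 127 without day 42 replicates 1 and 3, and to 113, 105 and 128 without day 28 replicates 2, 3 and 4, where the lower counts were 1359, 1383 and 1382. The replicate block, with the replicate number as a term, gave 662 and 2242 genes for day 49 and 172 and 2089 for day 42. Arrays of the same number did not deviate together (correlations -0.06, 0.11, -0.08 and -0.16 at days 49 and 21), so the numbers are not taken as pairs.

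Some described genes reversed in 1 or more settings. PLIN1 became 2.36 with all ages in the fit and 2.28, 2.43 and 2.37 without day 21 replicates 1, 2 and 3 (range on leaving out each array -0.24 to 2.43). RXRA became -0.27, -0.10 and -0.14 without day 49 replicates 1, 2 and 3 (range -0.27 to 1.31). MGLL became 1.17 after quantile normalization and 0.97, 0.86 and 1.16 without day 21 replicates 1, 3 and 4 (range -1.41 to 1.16). PNPLA2 became 1.24 and HSPG2 -0.092 when probe sets were averaged. IL6 became 0.15 with all ages and 0.14 without day 21 replicate 1 (range -1.60 to 0.14). COPG1 became -2.11 with all ages, -2.09, -2.15, -1.97 and -2.24 without day 49 replicates 1 to 4 (range -2.24 to 2.68), -1.96 without day 49 replicates 2 and 3, and -1.94 without day 21 replicate 4 as well. These genes have several probe sets that disagree, and which is brightest depends on the arrays. Of 2475 values of described genes under other settings, 2332 kept direction and call. Dim genes, such as THRB, lie near the lower end of the signal, where small changes cannot be seen.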

Other observations

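Of the 20 sterol synthesis genes tested 3 fell (15%, near the 18.2% of all genes) and 0 rose, and 3 fell and 1 rose after quantile normalization. ACAT2, which makes the acetoacetyl-CoA of the pathway, fell from 8.94, 8.90, 8.88 and 9.12 to 6.59, 6.49, 7.40 and 6.76 (-2.15 ± 0.19, adjusted p = 3.87e-05), and LSS, which closes the sterol rings, from between 8.83 and 8.97 to between 6.91 and 7.32 (adjusted p = 1.31e-05). In both genes 1 of 3 probe sets was called, and averaging the 3 ended the call (-0.81 and -0.19). Of 66 cell cycle genes 9 fell (13.6%) and 5 rose (7.58%), near or below the shares of all genes, and 7 and 7 after quantile normalization. Members with roles in DNA replication and division did not move together. RRM2, a subunit of ribonucleotide reductase, fell by 1.46 (adjusted p = 0.000664) and the kinetochore gene CENPI by 1.51 (adjusted p = 2.32e-05), while TK1, thymidine kinase, rose from 5.51, 5.81, 5.30 and 6.49 to 7.68, 7.94, 7.73 and 7.45 (adjusted p = 0.000222). UCHL1, a ubiquitin hydrolase of neurons, rose by 2.22 with 2 of 3 probe sets called higher (adjusted p = 0.00423). In its list of nerve and Schwann cell genes 1 of 18 rose (5.56%) and 2 fell (11.1%), beside 5.31% and 18.2% of all genes.

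Of 51 liver genes 5 rose (9.80%) and 2 fell (3.92%), beside 5.31% and 18.2% of all genes. SERPIND1 and ITIH2 were among those called also without day 49 replicates 2 and 3, the arrays high in albumin. SERPIND1 (heparin cofactor II) read 4.92, 4.59, 4.62 and 4.51 at day 21 and 6.51, 7.10, 7.67 and 6.39 at day 49 (adjusted p = 0.000153), and ITIH2, an inter-alpha-trypsin inhibitor chain, rose by 1.25 (adjusted p = 0.000926). Replicates 1 and 4 of day 49, with ALB at 6.45 and 6.54, were above every day 21 array for both genes. SERPIND1 and ITIH2 averaged 4.66 and 5.23 at day 21, so both passed the dim filter only through day 49. Without day 21 replicate 4 as well as day 49 replicates 2 and 3, ITIH2 differed by 0.997, under the fold limit, and was not called. The other lists stand beside 5.31% higher and 18.2% lower of all genes, and none was tested as a set. Of 15 mesothelial genes 2 rose (13.3%) and 0 fell, and of 23 matrix remodelling genes 2 rose (8.70%) and 4 fell (17.4%). Of 19 red cell genes 1 rose (5.26%) and 4 fell (21.1%), and of 21 gonad and oviduct genes 1 rose (4.76%) and 3 fell (14.3%). Of 17 antigen presentation genes 1 rose (5.88%) and 3 fell (17.6%), and of 37 interferon response genes 1 rose (2.70%) and 2 fell (5.41%). Of 22 B and plasma cell genes 1 rose and 1 fell (4.55% each), and of 15 smooth muscle and pericyte genes 1 rose and 1 fell (6.67% each). Of 30 skeletal muscle genes 1 fell, and none of 20 intestinal or 11 exocrine pancreatic genes passed the limma test with the fold limit, while 6 and 6 had an unadjusted p under 0.05. The mean of the 4 pancreatic markers on the array was 5.88 to 6.29 at day 21 and 6.42 to 6.59 at day 49 (exact permutation p = 0.0286). Of these markers CPA1 and CEL did not overlap, at no more than 6.69 and 6.49, while AMY2A and CTRC overlapped. The 2497 dimmest genes of any kind also had a median difference of 0.14. Of 9053 probe sets with no gene symbol above the dim limit, tested apart, 688 were higher (7.60%) and 946 lower (10.4%).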
